A study of Mus musculus with 3 samples.

Results

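The vascular endothelial growth factor (VEGF) and angiopoietin genes Flt1, Kdr, Vegfa, Vegfb, Vegfc, Pgf, Angpt1, Angpt2 and Tek were examined in mouse neural stem cells with and without the label of a Dnmt3a knockout. Every array probe filed under 1 of these 9 gene names was taken, which gave 19 of the 41174 probes on the array, in 46 spots per array, for 9 of 27670 gene names. Of the 19 probes, 13 were bright enough to be tested, and they covered 8 of the 9 genes. The genes were chosen by name with the log2 ratios of these same arrays known, so the calls below describe the fit over all probes and are no independent support for a change of the family.

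The data are 3 arrays, 1 for each biological replicate. Each array paired RNA of neural stem cells labelled Dnmt3a-/- (labelled KO, green dye Cy3) with RNA of neural stem cells labelled wildtype (labelled WT, red dye Cy5). Both cell populations came from embryonic stem cells by way of neurospheres and were grown with EGF and bFGF, and the labels name no strain, clone or deleted exon. Dyes were not exchanged on any array, so the genotype and the dye of a single probe cannot be told apart. All 3 probes of Dnmt3a, the DNA methyltransferase gene named as deleted, were higher in the RNA labelled KO, at mean log2 ratios of 0.61 ± 0.03, 0.76 ± 0.04 and 0.99 ± 0.08 (SD, n = 3). That goes against the label. The labels do not give the deleted part, and probes outside it would check nothing, so each direction below is stated for the RNA labelled KO over the RNA labelled WT.

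VEGFs are secreted dimers that bind receptor tyrosine kinases, above all on endothelial cells, and drive vessel growth and permeability. Kdr (VEGF receptor 2) carries most of the growth signal, while Flt1 (VEGF receptor 1) binds VEGF-A tightly, signals weakly and also exists as a secreted form that traps ligand. Angiopoietins act on the receptor Tek (Tie2): Angpt1 activates it and stabilises vessels, and Angpt2 can oppose Angpt1. Neural precursors in the embryonic brain are known as a source of Vegfa for ingrowing vessels, and VEGF can also act on neural cells directly.

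In the RNA labelled KO, the receptor gene Flt1 was 2.17-fold higher by its brightest probe, and the Tek ligand Angpt2 was 1.95-fold higher. The lymphatic growth factor gene Vegfc was 1.31-fold higher and Vegfb 1.12-fold and 1.19-fold higher by its probes, directions that turned when arrays were scaled by their medians alone. Vegfa was 1.14-fold to 1.28-fold lower by 3 probes, and Pgf, the placental growth factor gene, was 1.26-fold lower. Kdr and Tek did not pass the test, and Angpt1 was not measurable. Of the 13 tested probes, 7 were higher and 4 lower (limma, Benjamini-Hochberg adjusted p under 0.05 over all 26626 tested probes). Over all tested probes 44.4% were called, 20.8% higher and 23.6% lower, so a call by itself is common on these arrays and the size of a ratio says more. Probes of 1 gene share a transcript and are not replicates.

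**Figure D1:**
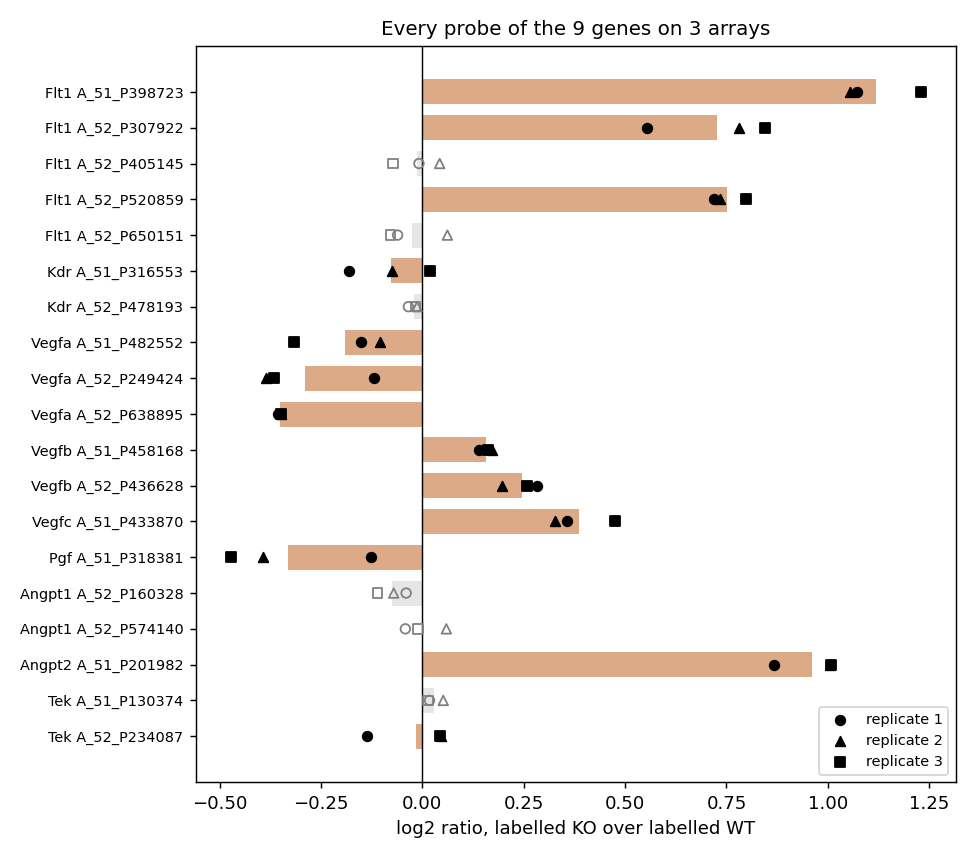
Log2 ratio (labelled KO over labelled WT) for each of the 19 probes of the 9 genes. Symbols are the 3 arrays and bars their mean; filled symbols mark the 13 tested probes and open symbols the 6 that were too dim. The Flt1 probes at 0.73 to 1.12 and the Angpt2 probe at 0.96 stand apart from the rest.

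Flt1 had 5 probes. Its brightest, A_51_P398723, lies on chromosome 5 from 146456678 to 146456619 (mouse build mm7), at the 3′ end of the probed region. Its normalised intensity was 3337, 3252 and 3551 in the RNA labelled KO, against 1588, 1565 and 1514 in the RNA labelled WT, for replicates 1, 2 and 3. These are scanner units after normalisation, with an offset of 50 included. The lowest labelled KO value was more than the highest labelled WT value, with no overlap. The log2 ratio was 1.07, 1.06 and 1.23, with a mean of 1.12 ± 0.10 (SD, n = 3; limma, adjusted p = 5.3e-07), and 0.255% of tested probes were higher. Probe A_52_P520859, which starts 73 bases upstream, read 674, 672 and 709 in the RNA labelled KO, against 409, 404 and 408 in the RNA labelled WT. Its mean log2 ratio was 0.75 ± 0.04 (limma, adjusted p = 1.5e-06).

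Another Flt1 probe, A_52_P307922, lies 76.0 kb toward the 5′ end and was designed on a cDNA clone and not on the RefSeq transcript. It read 323, 346 and 369 in the RNA labelled KO, against 220, 201 and 206 in the RNA labelled WT, again without overlap. Its mean log2 ratio was 0.73 ± 0.15 (limma, adjusted p = 2.1e-05). The brightest probe's ratio was larger than this one's by 0.52, 0.27 and 0.39 on the 3 arrays. Probes A_52_P650151 and A_52_P405145, 83.3 and 92.2 kb from the 3′ probe and also designed on cDNA clones, cleared the scanner's background test on 0 arrays in labelled KO RNA and on 1 array each in labelled WT RNA. Their ratios of -0.03 and -0.01 are therefore ratios of background. Whether the clones share exons with the full-length receptor or with its secreted form was not tested, because no annotation of build mm7 was used here. The probes that carry the Flt1 result are identified by their first 30 of 60 bases:
A_51_P398723: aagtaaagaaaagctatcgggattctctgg
A_52_P520859: cctgtattattccgattttaataatctaat
A_52_P307922: caccaagctttgatggcattcaaagatgtc

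**Figure D2:**
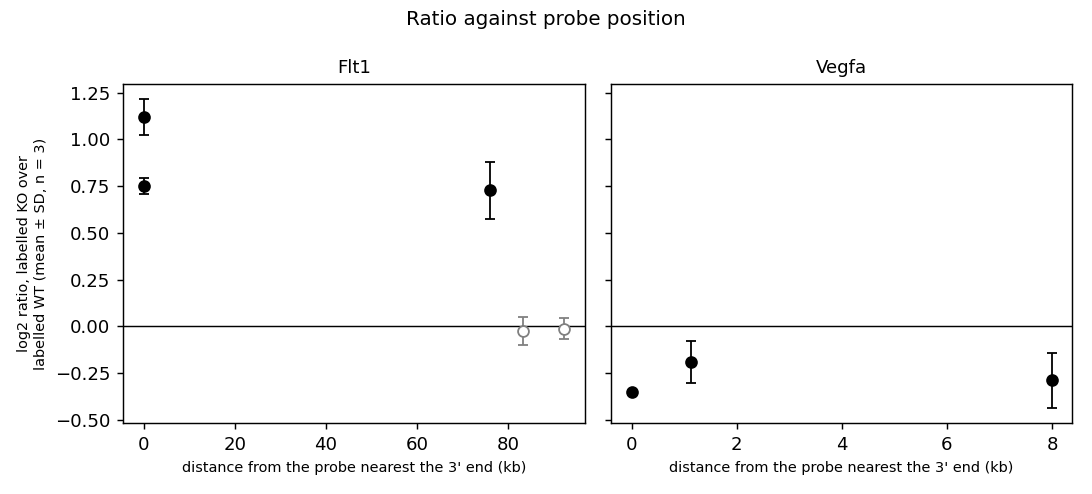
Mean log2 ratio, labelled KO over labelled WT (error bars SD, n = 3) against the distance of each probe from the one nearest the 3′ end, for Flt1 on the left and Vegfa on the right. Filled points were tested and open points were too dim. The 3 tested Flt1 probes lie at 0.73 to 1.12 over 76.0 kb, and the 3 Vegfa probes between -0.35 and -0.19 over 7.99 kb.

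The size of the Flt1 ratio depended on normalisation and its direction did not. Raw spot signals of A_51_P398723 were 2359, 2960 and 2619 in the green channel labelled KO, against 2386, 1933 and 1652 in the red channel labelled WT, and the red channel was brighter over the array as a whole (median spot signal 92.1 to 105, against 75.7 to 88.1 in green). When loess was replaced by median centring of each array, the all-probe median moved to -0.22, and the Flt1 probes stood at 0.66, 0.39 and 0.44 for A_51_P398723, A_52_P520859 and A_52_P307922. With the background model fitted on all spots, marked outliers included, they stood at 1.01, 0.43 and 0.26. The adjusted p of these 3 probes ranged up to 0.017 over all alternatives. 

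Kdr lies on the same chromosome and is the other VEGF receptor gene of the set. Its RefSeq probe A_51_P316553, spotted 10 times and placed from 75351596 to 75351537 (mm7), read 168, 174 and 177 in the RNA labelled KO, against 190, 183 and 175 in the RNA labelled WT, and the groups overlapped. The log2 ratio was -0.18, -0.07 and 0.02, with a mean of -0.08 ± 0.10 (SD, n = 3; limma, adjusted p = 0.18). The 95% interval of the mean was -0.18 to 0.02, so a change of the size seen for Flt1 lies outside it. The SD between the spots of an array was 0.050 to 0.075. With median centring Kdr was at -0.28 and past the threshold (adjusted p = 0.028, with a range of 0.028 to 0.62 over all alternatives), close to the all-probe median of -0.22. A second probe, A_52_P478193, was not well above background in either channel on any array. Within an array the Flt1 log2 ratio exceeded that of Kdr by 1.25, 1.13 and 1.21, a mean of 1.20 ± 0.06, and by a mean of 0.94 with median centring.

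Dnmt3a places methyl groups on cytosines followed by guanine, so the density of such CG pairs around the start sites of the members is given with the sequences. Windows of 250 bases before to 50 after the start were taken from RefSeq (build GRCm38.p6), and 7 of the 9 genes were matched to a window. CG pairs are in capitals. The receptor genes Flt1 (chr5:147725962-147726261, minus strand), Kdr (chr5:75978406-75978705, minus strand) and Tek (chr4:94739039-94739338, plus strand) and the ligand gene Vegfa (chr17:46032328-46032627, minus strand) are shown for the contrast in CG density:
Flt1: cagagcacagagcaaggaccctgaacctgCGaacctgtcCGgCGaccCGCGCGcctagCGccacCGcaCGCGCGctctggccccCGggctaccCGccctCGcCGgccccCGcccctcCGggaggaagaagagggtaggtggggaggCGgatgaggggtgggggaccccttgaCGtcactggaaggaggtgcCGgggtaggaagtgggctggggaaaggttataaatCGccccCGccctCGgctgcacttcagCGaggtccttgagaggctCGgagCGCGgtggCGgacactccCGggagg
Kdr: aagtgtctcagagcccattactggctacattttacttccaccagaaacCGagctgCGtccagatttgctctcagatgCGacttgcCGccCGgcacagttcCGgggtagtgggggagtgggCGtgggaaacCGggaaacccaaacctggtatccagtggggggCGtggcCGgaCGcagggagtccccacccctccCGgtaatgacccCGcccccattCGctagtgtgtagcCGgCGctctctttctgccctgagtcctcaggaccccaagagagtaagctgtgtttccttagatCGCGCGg
Tek: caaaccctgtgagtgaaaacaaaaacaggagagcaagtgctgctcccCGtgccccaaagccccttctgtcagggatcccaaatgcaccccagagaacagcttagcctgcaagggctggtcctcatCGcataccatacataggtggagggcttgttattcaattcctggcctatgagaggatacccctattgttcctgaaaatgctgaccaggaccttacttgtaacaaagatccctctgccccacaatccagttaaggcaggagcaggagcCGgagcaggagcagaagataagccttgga
Vegfa: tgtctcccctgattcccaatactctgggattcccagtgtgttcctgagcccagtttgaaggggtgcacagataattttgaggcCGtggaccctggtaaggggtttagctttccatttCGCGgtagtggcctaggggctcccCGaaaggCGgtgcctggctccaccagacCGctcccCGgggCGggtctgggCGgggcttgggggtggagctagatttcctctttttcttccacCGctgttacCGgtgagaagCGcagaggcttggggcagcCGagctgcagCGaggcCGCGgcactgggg

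Flt1 had 29 CG pairs in its window, Kdr 19, Vegfa 16 at the upstream start shown and 10 at a downstream start, and Tek 3, where the median of all 32851 mouse windows was 7. Among the other ligands Vegfc had 35, Vegfb 31, and Pgf 23 at its upstream and 7 at its downstream start. Of all windows, 12.9% held at least as many as Flt1 and 76.7% at least as many as Tek. Windows with more CG pairs than the median of 7 occurred in genes called higher (Flt1, Vegfb, Vegfc) and in genes called lower (Vegfa, Pgf), and DNA methylation was not measured. The letters TGACGTCA, the binding sequence of CREB-type factors, occurred from base 170 of the Flt1 window, in none of the other members' windows and in 1.79% of all windows. That motif reads the same on both strands and holds 1 of the CG pairs. The core letters of hypoxia response elements, ACGTG or GCGTG on either strand, occurred in the windows of Flt1 (1), Kdr (2), Vegfb (2), the downstream start of Vegfa (2) and the upstream start of Pgf (1), and in 43.8% of all windows. The Vegfa window shown, at the upstream start, held none, as did those of Vegfc and Tek and the downstream start of Pgf. These matches describe letters only.

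Vegfa, the ligand of both VEGF receptors, was lower by each of its 3 probes. Probe A_52_P638895, on chromosome 17 from 44146901 to 44146842 (mm7), read 952, 890 and 883 in the RNA labelled KO, against 1218, 1134 and 1124 in the RNA labelled WT. The groups did not overlap, and the log2 ratio was -0.36, -0.35 and -0.35, with a mean of -0.35 ± 0.004 (SD, n = 3; limma, adjusted p = 7.1e-05). This is the lowest mean ratio of the tested members, and 4.33% of tested probes were lower. Probe A_52_P249424, 7.99 kb toward the 5′ end, read 285, 268 and 276 in the RNA labelled KO, against 309, 350 and 356 in the RNA labelled WT. Its mean log2 ratio was -0.29 ± 0.15 (adjusted p = 0.0030), and -0.12 with the background model fitted on all spots.

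The remaining Vegfa probe, A_51_P482552, was spotted 10 times and gave the smallest ratio. It read 683, 699 and 590 in the RNA labelled KO, against 758, 752 and 735 in the RNA labelled WT. Its log2 ratio was -0.15, -0.10 and -0.32, with a mean of -0.19 ± 0.11 (SD, n = 3; limma, adjusted p = 0.010). The spots within an array had an SD of 0.036 to 0.061, so the spread between arrays exceeded that between spots. The call was lost under 5 of 11 alternatives, among them the fit without the pairing of channels by array (adjusted p = 0.052), with adjusted p from 0.0017 to 0.083 over all of them. Without replicate 3 the ratio was -0.13.

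Vegfc, which acts through Flt4 (VEGF receptor 3) in lymphatic vessels and on neural progenitors, had a single probe, on chromosome 8 from 52955111 to 52955170 (mm7). It read 2348, 2472 and 2305 (labelled KO), against 1833, 1971 and 1658 (labelled WT), with every labelled KO value above every labelled WT value. The log2 ratio was 0.36, 0.33 and 0.47, with a mean of 0.39 ± 0.08 (SD, n = 3; limma, adjusted p = 0.00012), and it turned to -0.07 with median centring, where the all-probe median was -0.22. Vegfb, a ligand of Flt1 and not of Kdr, was higher by both probes. The brighter, A_51_P458168 on chromosome 19 from 6802393 to 6802334 (mm7), read 2949, 3085 and 2475 (labelled KO), against 2678, 2740.0 and 2211 (labelled WT). The ranges overlapped, and within each array the labelled KO value was the higher, by 0.14, 0.17 and 0.16 on the log2 scale (mean 0.16 ± 0.02; adjusted p = 0.0055). Without the pairing by array the adjusted p was 0.27, within a range of 0.0045 to 0.27 over all alternatives. Probe A_52_P436628 read 715, 649 and 742 (labelled KO), against 587, 567 and 621 (labelled WT), at a mean of 0.25 ± 0.05 (adjusted p = 0.00076). With median centring the Vegfb probes turned to -0.31 and -0.14. The shift under that scaling differed with brightness, so the all-probe median is not the level of bright probes. Grb2 and Arnt, at intensities of 2780 and 1428 (labelled KO), went from -0.01 and -0.02 to -0.48 and -0.46. The dim Vwf, at 72.8, went from 0.01 to 0.16.

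Pgf, a ligand of Flt1 alone among the VEGF receptors, was lower by its probe on chromosome 12, between 83169225 and 83167223 (mm7). It read 228, 208 and 197 (labelled KO), against 249, 273 and 274 (labelled WT), without overlap. The log2 ratio was -0.13, -0.39 and -0.47, with a mean of -0.33 ± 0.18 (SD, n = 3; limma, adjusted p = 0.0030). With the background model fitted on all spots it was -0.10 and not past the threshold (adjusted p = 0.058, with 0.00022 to 0.058 over all alternatives). Relative to Vegfa within an array, the log2 ratio of Vegfc was higher by 0.71, 0.68 and 0.82 and that of Vegfb by 0.49, 0.52 and 0.51, taking the brightest probe of each. These differences averaged 0.74 ± 0.08 and 0.51 ± 0.01, and 0.70 and 0.45 with median centring, so the ligands moved unequally under either scaling.

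**Figure D3:**
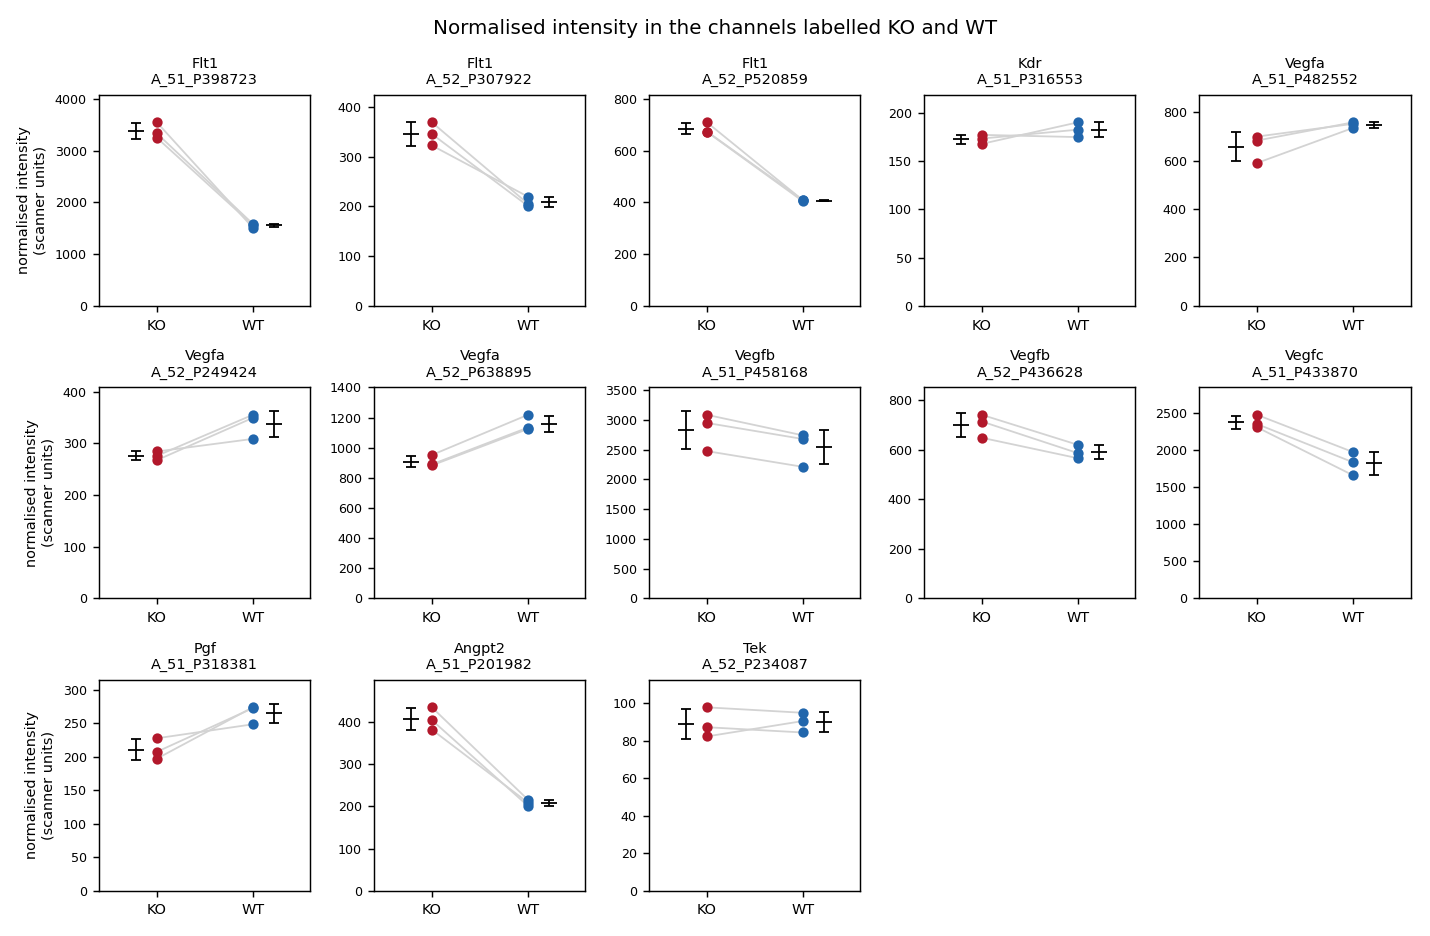
Normalised intensity of the 13 tested probes in the channel labelled KO (red, left) and the channel labelled WT (blue, right), in scanner units on axes that start at 0. Points are arrays, grey lines join the channels of 1 array, and black bars give the mean and SD (n = 3). The channels separate widely for Flt1 and Angpt2 and overlap for Kdr, Tek and the brighter Vegfb probe.

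Among the angiopoietins, Angpt2 was the gene with a clear signal. Its only probe, A_51_P201982 on chromosome 8 from 18668186 to 18668127 (mm7), read 381, 404 and 434 in the RNA labelled KO, against 209, 201 and 216 in the RNA labelled WT. The groups did not overlap. The log2 ratio was 0.87, 1.00 and 1.01, with a mean of 0.96 ± 0.08 (SD, n = 3; limma, adjusted p = 8.1e-07), and 0.409% of tested probes were higher. It stood at 0.67 with median centring and at 0.38 with the background model fitted on all spots, and the adjusted p ranged up to 0.020 over all alternatives. Angpt2 was probed at 1 place, which starts, in its first 30 of 60 bases, with this sequence:
A_51_P201982: acctatcttgatggcttagtttttaatggc

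Angpt1 could not be measured. Probe A_52_P160328 was not well above background on any array, and A_52_P574140 was so on 1 array, in labelled KO RNA, so no fold is given. Tek was close to background too. Its RefSeq probe A_51_P130374 cleared the background test on 0 arrays in labelled KO RNA and on 1 array in labelled WT RNA. The tested Tek probe, A_52_P234087, was designed on a cDNA clone and lies on chromosome 4 from 94134402 to 94134461 (mm7), 132 kb upstream. It read 82.3, 87.2 and 97.8 in the RNA labelled KO, against 90.5, 84.4 and 94.9 in the RNA labelled WT, with overlapping ranges. Its mean log2 ratio was -0.015 ± 0.11 (SD, n = 3; limma, adjusted p = 0.81), with a 95% interval of -0.12 to 0.09. The offset of 50 draws the ratio of so dim a probe toward 0, and with the scanner's own processed signals it was at -0.19, also not past the threshold.

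By the distance between the 3 log2 ratios, the genes with values most like those of the brightest Flt1 probe were Gsta3, Ppp1r12b and Steap1, at distances of 0.083, 0.090 and 0.097. The nearest to the lowest Vegfa probe were Creb1, Ubfd1 and Eif2ak3, at 0.013, 0.015 and 0.015. With 3 arrays of 1 contrast this likeness describes the size of the ratio only.

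The wider pathway did not move as a block. For each gene in the lists that follow, the brightest tested probe was taken, and over all 18033 genes so represented 46.8% were called, 22% higher and 24.8% lower, with a median log2 ratio of -0.01. Of 16 other receptors, co-receptors and ligands of these families, 11 were tested. Calls were 3 higher and 4 lower, and the median was -0.02. With median centring limma called 0 higher (3 at an unadjusted p under 0.05) and 6 lower. That setting called 4.39% of all tested probes higher and 49.1% lower, the nearest shares for each median-centring count below. These shares cover every tested probe, while the lists take the brightest probe of each gene, so the bases are unlike. Both neuropilins, the co-receptors that present VEGF to Kdr, were lower, Nrp2 at -0.62 ± 0.05 (SD, n = 3) and Nrp1 at -0.29 ± 0.06. Angptl6, an angiopoietin-like factor, was at -0.36 and Ptprb, the phosphatase that restrains Tek, at -0.30. Ptprb was dim, with a mean normalised intensity of 71.6 in the RNA labelled KO and 88.0 in the RNA labelled WT, and was at -0.04 with the background model fitted on all spots. The ligand gene Vegfd was higher at 0.43 ± 0.08. The proteoglycan Sdc2 at 0.22 and the sialomucin Emcn at 0.21 were also higher, and both turned negative with median centring. Angpt4, at 0.07, missed the threshold, and Flt4 and Tie1 were too dim to test.

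PDGF ligands and the related class III receptor kinases split as well, with 3 of 11 tested genes higher and 4 lower (2 and 4 with median centring) and a median of -0.04. Pdgfra, which lies beside Kit and Kdr on chromosome 5, was lower at -0.59 ± 0.04, while Kit was higher at 0.41 ± 0.04. The ligands Pdgfa at 0.88 ± 0.01 and Csf1 at 0.75 ± 0.07 were higher, and Pdgfb at -0.47 ± 0.12 and Kitl, the Kit ligand, at -0.41 ± 0.06 lower.

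Hypoxia-inducible factors are the best known activators of Vegfa. Hif1a RNA was at 0.23 ± 0.03 and Epas1 RNA at 0.31 ± 0.10, both past the threshold and opposite in sign to Vegfa. However, Hif1a turned to -0.21 with median centring, and the dim Epas1 was at 0.04 with the background model fitted on all spots. The protein and activity of these factors were not measured. Of 26 tested genes of the hypoxia list, 9 were higher and 4 lower, and the other 13 missed the threshold (median 0.05). With median centring the counts were 1 higher and 18 lower (median -0.38), against 4.39% and 49.1% of all tested probes. Pdk1, which restrains pyruvate entry into mitochondria, was at 0.45, the collagen hydroxylase P4ha2 at 0.41 and Ddit4 at 0.38 ± 0.34. Ddit4 rested on replicates 1 and 2, at 0.49 and 0.66, with replicate 3 at 0.01. Ndrg1 was at -1.14 ± 0.09 and the lipoprotein receptor Vldlr at -0.28. P4ha2 and Ddit4 were among the 6 of 9 higher genes that turned negative with median centring.

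The list of secreted and matrix inhibitors of angiogenesis had 8 of 20 tested genes higher and 8 lower (3 and 10 with median centring). It held some of the largest ratios. Sema3e, a semaphorin that repels vessels through plexin D1, was at 1.20 ± 0.11, Timp3, which blocks VEGF binding to Kdr, at 0.95 ± 0.03 and Thbs2 at 0.64 ± 0.05. Thbs4, listed as a thrombospondin and not as an established inhibitor, was at -3.47 ± 0.10. The chemokine Cxcl10 was at -1.35 ± 0.29 and Serpinf1, which encodes PEDF, at -0.49 ± 0.05.

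Signal transducers of VEGF receptors and Tek had 11 of 29 tested genes higher and 6 lower (median 0.09). With median centring 2 were higher and 15 lower (median -0.34), where 4.39% of all tested probes were higher and 49.1% lower. The background model fitted on all spots gave 6 higher and 6 lower, against 10.2% and 13.7% of all tested probes. Sphk1 at 0.70 ± 0.04, Plcg2 at 0.56 ± 0.06 and Prkcb at 0.45 ± 0.08 were the highest. The adaptors Grb10 at -0.80 ± 0.05, Grb14 at -0.47 ± 0.07 and Gab1 at -0.32 ± 0.09 were the lowest. Pik3r1 at -0.12 and Shc2 at -0.15 were also counted as lower, though another probe of each gene was called in the opposite direction. Genes that VEGF induces in endothelial cells had 7 of 17 tested genes higher and 7 lower (1 and 9 with median centring). Tissue factor (F3) was at 0.45, the protease Adamts1 at 0.41 and the Notch ligand Dll4 at 0.37, of which F3 and Adamts1 turned negative with median centring. Egr2 was at -0.54, Hlx at -0.39 and Unc5b at -0.38. Proteases and other growth factors of vessel growth had 7 of 12 tested genes higher and 3 lower, with a median of 0.29. With median centring the counts were 1 higher and 3 lower and the median -0.06. The matrix protease Mmp3 was at 3.01 ± 0.06, Ccn1 at 0.53 ± 0.12 and cathepsin D (Ctsd) at 0.52 ± 0.03, and Ctsd was at -0.02 with median centring. Mmp9, which frees VEGF from matrix, was at -0.48 ± 0.06, Adamts3, which activates Vegfc, at -0.47 ± 0.12 and Plat at -0.20 ± 0.10.

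**Figure D4:**
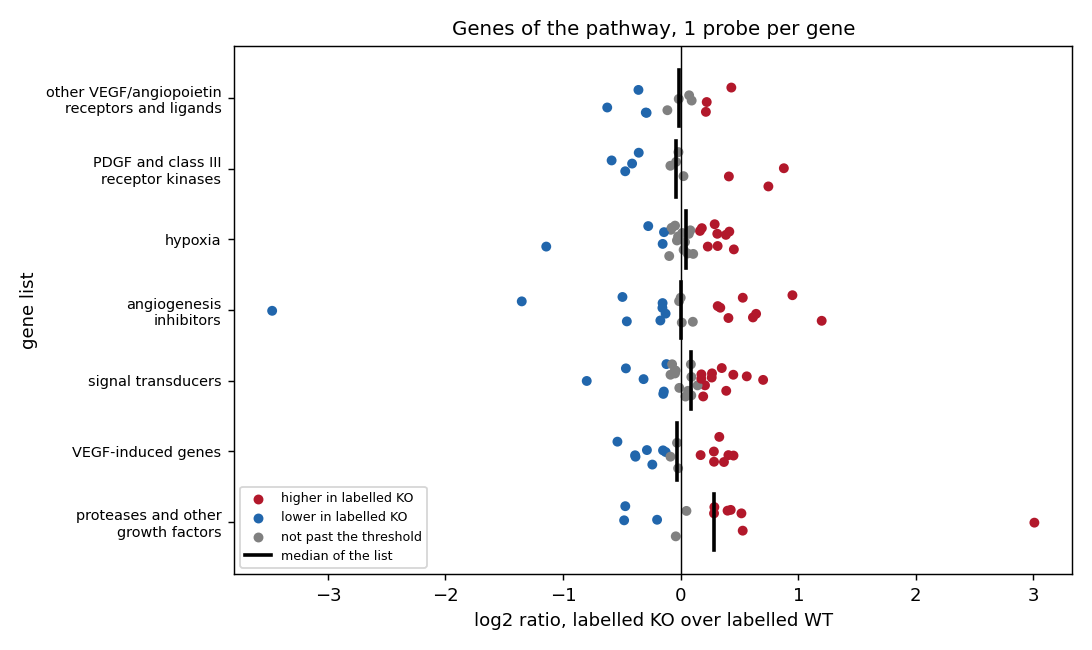
Log2 ratio (labelled KO over labelled WT) for the tested genes of 7 pathway lists, 1 probe per gene. Red points were higher and blue points lower (adjusted p under 0.05), grey points were not past the threshold, and black bars are list medians. Medians lie between -0.04 and 0.29, with calls in both directions in each list.

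Because Flt1, Kdr, Angpt2 and Tek are best known from endothelial cells, markers of that cell type were read on the same arrays. Of 25 endothelial markers, 16 were well above background by some probe in the RNA labelled KO on each array, and 17 to 20 in the RNA labelled WT. Pecam1, Cdh5, Tie1, Tal1, Sox18 and Lyve1 were too dim to test. Of the 19 tested, 5 were higher and 9 lower (median -0.04), against 1 and 8 with median centring and 4 and 4 with the background model fitted on all spots. Some of these calls came from markers as dim as the tested Tek probe. Sox7, Ptprb and Sele, called lower, had mean normalised intensities of 65, 71.6 and 66.8 (labelled KO), and 71.4, 88.0 and 81.5 (labelled WT). Robo4, called higher, was at 88.0 and 77.2. Esam, Cldn5, Vwf, Sox17 and Icam2 were about as dim and were not called. A stricter filter on both channels gave 5 higher and 6 lower. Eng at -1.97 ± 0.06 and Ramp2 at -1.48 ± 0.02 were the lowest, Erg at -0.46 ± 0.04 came next, and Mmrn2 at 0.50 ± 0.04, Gata2 at 0.41 ± 0.03 and Ecscr at 0.36 ± 0.04 were the highest. Ecscr turned to -0.07 with median centring, and Eng, Erg and Ramp2 were at -0.75, -0.07 and -1.30 with the background model fitted on all spots. The summed normalised intensity of the tested markers was 12948 to 13967 in the RNA labelled KO and 14372 to 15056 in the RNA labelled WT, and every labelled KO sum was below every labelled WT sum. Without Ramp2, an alternative chosen after seeing the data, the sums were 12184 to 13047 in the RNA labelled KO and 12197 to 12491 in the RNA labelled WT, with overlap. In bulk RNA, fewer cells of a type and less RNA per cell cannot be told apart.

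The labelled cell type was checked too. Of 14 neural stem cell markers, 13 were well above background on each array in the RNA labelled KO and 13 or 14 in the RNA labelled WT, with Vim, Fabp7 and Nes bright in both channels. Of the 13 tested, 8 were lower and 2 higher (9 and 1 with median centring). Their summed intensity was 55618 to 56994 in the RNA labelled KO and 64160 to 67169 in the RNA labelled WT. Vim and Fabp7 made up most of these sums. Mean normalised intensity was 33683 (labelled KO) and 38847 (labelled WT) for Vim, and 15644 and 18743 for Fabp7. Olig2 at -0.63, Sox2 at -0.36 and Fabp7 at -0.26 were the lowest of the list, and Pax6 at 0.24 the highest. Olig2 and Pax6 were dim, at -0.13 and 0.03 with the background model fitted on all spots. Fibroblast markers were above background for 10 of 10 genes in both channels, with sums of 153466 to 157107 in the RNA labelled KO and 196988 to 214435 in the RNA labelled WT, and with 6 of 10 lower and 3 higher (7 and 1 with median centring). Without Col1a1 and Col1a2, chosen after seeing the data, the sums were 114423 to 120190.0 in the RNA labelled KO and 117564 to 120951 in the RNA labelled WT, with overlap. Col1a2 was at -1.48, Col1a1 at -0.97 and Thy1 at -0.73, while Postn was at 0.95, Fbln1 at 0.31 and Twist1 at 0.27. Fbln1 and Twist1 turned negative with median centring. Of the microglia and blood markers 5 of 11 were tested, 1 higher and 2 lower. Tyrobp was at -0.28, and at -0.07 with the background model fitted on all spots. The part of these cell types in the ratios of Flt1 and Angpt2 was not tested.

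The share of all tested probes called moved with the processing. Median centring called 53.5% (4.39% higher and 49.1% lower), against 44.4% (20.8% higher and 23.6% lower) as reported. The background model fitted on all spots called 23.9% (10.2% higher and 13.7% lower), and the fit without pairing by array 29.2% (13.8% higher and 15.4% lower). A fit on 1 probe per gene called 48% (22.5% higher and 25.5% lower). Without replicate 1, 2 or 3 the share was 41.3%, 37.4% and 32.7%. Among the genes named from the lists, the background model fitted on all spots brought Vegfd to 0.11, Kit to 0.10, Nrp1 to -0.13, Pdgfb to -0.15 and Pdk1 to 0.15. It brought Plcg2 to 0.15, Prkcb to 0.21, Sphk1 to 0.40, Grb14 to -0.20 and Gab1 to -0.15. Dll4 was then at 0.15, Hlx at -0.05, Mmp9 at -0.14, Adamts3 at -0.13, Thbs4 at -2.08, Mmrn2 at 0.24 and Gata2 at 0.22. Median centring placed Nrp2 at -1.17, Nrp1 at -0.61, Pdgfra at -1.03 and Pdgfa at 0.40.

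**Figure D5:**
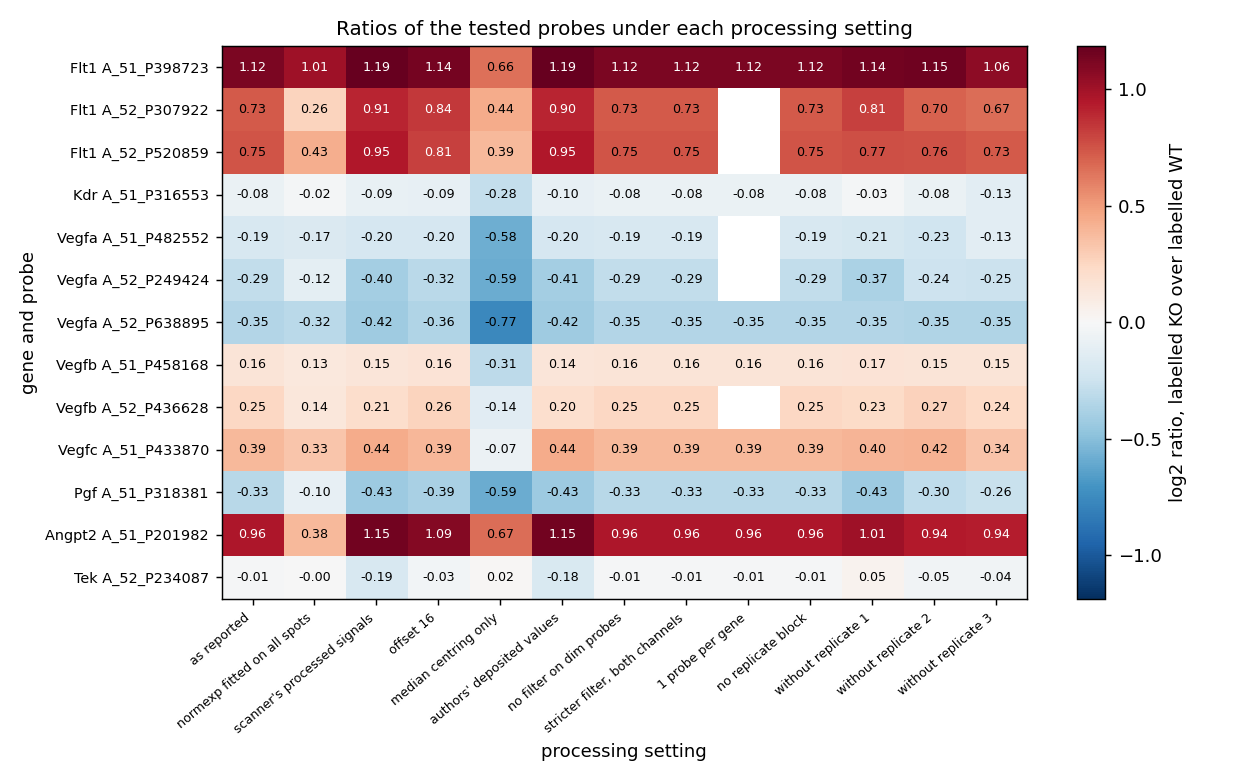
Log2 ratio (labelled KO over labelled WT) of the 13 tested probes (rows) under the reported processing and each alternative (columns), with the value printed in each cell and colour from blue (lower in labelled KO) to red (higher). Blank cells are probes that did not stand for their gene when 1 probe per gene was fitted. The Flt1 and Angpt2 rows stay positive, at 0.26 to 1.19, and the Vegfa rows negative, at -0.77 to -0.12.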

How the data were processed

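Total RNA labelled KO and WT was hybridised together on 3 two-colour Agilent arrays, which lay on 1 slide. Per the file headers, spot and background signals are raw intensity values from Feature Extraction 9.5.3.1, and the processed signals are intensity values that the software had background-corrected and dye-normalized. Per the file headers its log ratio is log10 of red over green. The authors' deposited value table was read as log2 of labelled KO over labelled WT, since correlation of its columns with log2 of the scanner's red over green ratio gave r = -0.998, -0.996 and -0.992; its centring is unknown here (column medians 0.0276).

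Here, mean spot minus median background signals were corrected with limma's normexp (offset 50, limma 3.58.1, R 4.3.3) fitted on unmarked spots, normalized by loess within arrays with control spots at weight 0, and averaged per probe. Spots with the scanner's outlier marks (170, 173 and 242) were left out. The model on unmarked spots was chosen after results of these arrays had been seen. Normalised intensities are the same values per channel after Aquantile normalization. Probes well above background in 1 channel on all 3 arrays were tested (26626), with limma (lmFit, eBayes, two-sided) on the mean log2 ratio against 0; the ratio pairs the channels by replicate number. The labels call the replicates biological and do not say what separates them, so p-values measure only the spread between these samples. Arrays limit the precision by their number.

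Members are every probe of the 9 gene names. From each list, the 3 highest and 3 lowest genes past the threshold with an absolute log2 ratio of at least 0.2 are named, with the families' own receptors, ligands and hypoxia factors whatever their value. Members, lists and processing were chosen with earlier results of these data known. Gene names came from the accession for 22951 probes from the symbol for 6659 and from a synonym for 3109. The fit was tested on simulated data. Ratios between arrays correlated across probes at r = 0.887 to 0.914, and genes are not independent replicates. Alternatives covered the background model and its offset, normalization, the filter, the authors' values, 1 probe per gene, the pairing and each replicate left out.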

Additional observations from a re-analysis of the deposited data

How the results depend on the processing

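Over the 13 tested probes and up to 12 alternatives each, 137 of 151 values kept their direction and side of the threshold, 8 lost the call, 1 gained it and 5 changed sign. With median centring, which moved the median of all tested probes to -0.22, the Vegfb probes turned to -0.31 and -0.14, Vegfc to -0.069 and Tek to 0.018. That shift differed with brightness: the bright Grb2 went from -0.01 to -0.48 and the dim Vwf from 0.01 to 0.16. Leaving out 1 replicate put Tek between -0.046 and 0.046. Median centring gave 4 member probes higher in place of 7, 16 list genes higher in place of 60, and a member median of -0.14 in place of 0.16. With normexp fitted on all spots, 2 member probes were lower in place of 4, and the member median was 0.13; over all probes that model called 2706 higher and 3645 lower and median centring 1168 higher and 13081 lower, in place of 5532 and 6282. With 1 probe per gene, fewer probes were fitted and 4 were higher and 2 lower, with a member median of 0.071. Leaving out 1 replicate gave 7 member probes higher each time and 3 or 4 lower. Without the replicate block, that is with the channels as 6 separate samples, 6 member probes were higher and 3 lower, with 3681 and 4091 over all probes; the calls lost were Vegfb A_51_P458168 (0.16) and Vegfa A_51_P482552 (-0.19), and no other member call changed. Of 24 counts over the lists, each under 12 alternatives, 33 of 288 moved by over 1.5 times, 12 of them with median centring. The causes were not tested. Signal over background limits Angpt1, Tek and the dim Flt1 and Kdr probes.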

Other observations

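Markers of pericytes and other mural cells, which line vessels and receive Pdgfb signals in tissue, were called in both directions. Of 11 tested, 4 were higher and 5 lower, against 22% and 24.8% of all genes by their brightest tested probe. With median centring the counts were 2 and 5, against 4.39% and 49.1% of all tested probes. Notch3, the Notch receptor of mural cells, was at 1.08 ± 0.05 (SD, n = 3), with a mean normalised intensity of 3115 in the RNA labelled KO and 1477 in the RNA labelled WT, and the potassium channel gene Kcnj8 was at 0.60 ± 0.04. Cspg4, which encodes NG2 and also marks oligodendrocyte precursors, was at -1.26 ± 0.06, the intermediate filament gene Des at -1.19 ± 0.13 and the adhesion gene Mcam at -0.60 ± 0.06. Anpep was at 0.28, and at -0.13 with median centring. With the background model fitted on all spots Cspg4, Des and Kcnj8 were at -0.47, -0.25 and 0.20. The summed intensity of the tested markers was 27738 to 28396 in the RNA labelled KO and 28133 to 30100.0 in the RNA labelled WT, with overlap.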
